A study of Mus musculus with 6 samples.

Results

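The miRNAs miR-132 and miR-212 were counted in inflamed mouse pancreas, as both mature arms (3p and 5p) of each hairpin, chosen by name. All 4 were found among the 1077 mature miRNAs of the table. The tissue was pancreas with pancreatitis, from control mice (labelled CON_AP) or from mice whose blood triglycerides were raised (labelled HTG_AP, here HTG), with 3 libraries per group. Strain, age, how pancreatitis was induced and how triglycerides were raised are not stated in the labels used here. Pancreatitis is common to all 6 libraries, and no healthy pancreas was analysed here. Nothing in the labels says that the libraries are from different animals, and the spread behind each p-value may therefore be technical in part.

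A miRNA is cut from a hairpin, and 1 of its arms guides a silencing complex to messenger RNAs that pair with its seed, the bases near its 5′ end. miR-132 and miR-212 lie next to each other and are processed from 1 primary transcript, whose transcription is raised by CREB, the factor that binds cyclic AMP response elements, after activity or cyclic AMP signalling; this was first described in rat neurons. In rat beta-cell lines both miRNAs rise with cyclic AMP. Known targets of miR-132-3p include the GTPase regulators Arhgap32 in rat neurons and Rasa1 in human endothelial cells, and acetylcholinesterase in mouse immune cells. The 5p arms are usually the rarer strands and their targets are less studied.

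The mature sequences show which members can share targets, and are printed 5′ to 3′ with the seed (bases 2 to 8) in capitals. They are RefSeq sequences on GRCm38.p6, matched by name for all 4 members.
mmu-miR-132-3p: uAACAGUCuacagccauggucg
mmu-miR-212-3p: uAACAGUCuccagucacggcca
mmu-miR-132-5p: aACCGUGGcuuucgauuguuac
mmu-miR-212-5p: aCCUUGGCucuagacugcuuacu

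The 3p arms carried the same seed, AACAGUC, and no other mature miRNA of the RefSeq mouse table had it. Over their 22 bases the 3p arms matched at 17 positions. Counted from 1 at the 5′ end of miR-132-3p, the differences from miR-132-3p to miR-212-3p were A10C, C14U, U17C, U20C and G22A, all outside the seed. The 5p arms had different seeds, and no other mature miRNA of the table shared either seed. Their longest common run was 5 bases. The 4 members were thus told apart by sequence, and each had its own counts.

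Both hairpins lie on chromosome 11 (+ strand) and are shown whole, with the mature arms in capitals, because the share of each arm is compared below.
Mir212, chr11:75173388-75173478: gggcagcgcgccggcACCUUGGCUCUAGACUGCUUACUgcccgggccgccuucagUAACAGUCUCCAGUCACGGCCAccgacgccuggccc
Mir132, chr11:75173682-75173747: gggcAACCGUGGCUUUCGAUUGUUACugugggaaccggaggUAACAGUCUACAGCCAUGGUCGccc

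The hairpins were 203 bases apart. In the GENCODE M21 gene models of GRCm38 both lie in the first intron of the noncoding host gene 1700016P03Rik (chromosome 11, 75172560 to 75177633, 3 exons), between its exon 1 (ending at 75172597) and its exon 2 (starting at 75173978). Mir212 starts 828 bases and Mir132 starts 1122 bases downstream of the annotated start of the host gene.

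The libraries held 6514498 to 19773579 counts. Levels are counts scaled to library size (CPM), divided by the library's factor from the trimmed mean of M-values (TMM); counts are of whole mature miRNAs, so no length term applies. A count of 0 would allow a level of up to 0.137 to 0.387 CPM, taking 3 counts as the limit and covering counting error only, since PCR copies are not independent molecules. Libraries numbered 1 of both groups stood apart in lymphoid miRNAs, and each member's value without them is given beside its result. For the defining miRNA of the tissue, the acinar miR-148a-3p, levels ran from 281634 to 413975 CPM in control and from 298082 to 492049 CPM in HTG, and none of the 5 acinar markers was at 0 in any library.

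The 4 members together were a small part of the pancreatic miRNAs, between 0.00538% and 0.00933% of a library's counts. miR-132-3p, the main product, ranked between 168 and 193 of the 1077 miRNAs, depending on the library. miR-132-5p ranked between 300 and 362, miR-212-3p between 273 and 376, and miR-212-5p between 336 and 492. The levels of miR-132-3p did not overlap with those of any other member. miR-132-5p and miR-212-3p could not be put in order: miR-132-5p was the higher of the pair in controls 1 and 2 and HTG 3, and the lower in the other libraries. miR-212-5p lay below both miR-132-5p and miR-212-3p in every library. Taken over all libraries, the range of miR-212-5p overlapped with that of miR-212-3p.

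**Figure D1:**
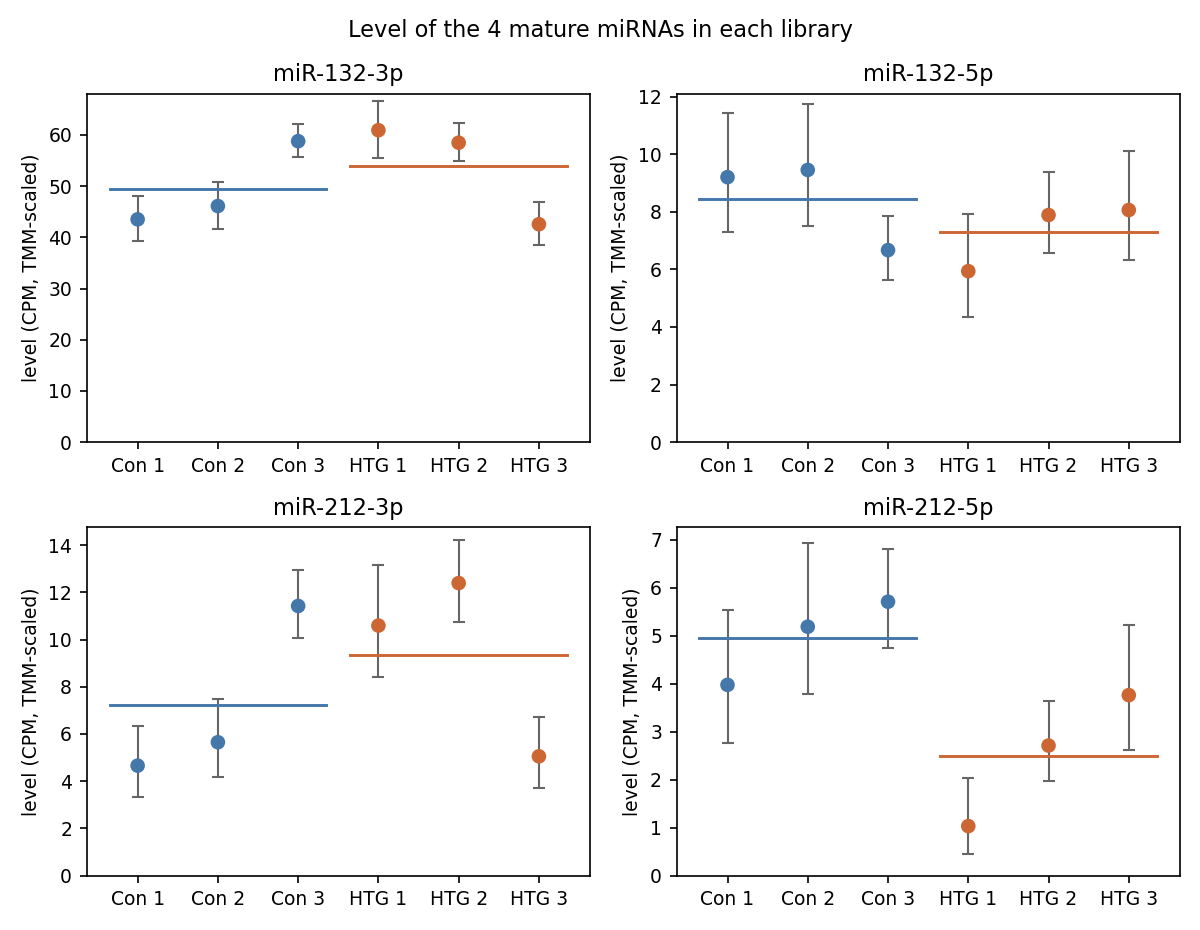
Level (CPM, TMM-scaled, axis from 0) of each of the 4 mature miRNAs in the 3 control (Con) and 3 HTG libraries; points are libraries, vertical bars the exact 95% Poisson intervals of the count, and horizontal lines the group means. Both 3p arms stand high in Con 3, HTG 1 and HTG 2 and low in the other libraries, and miR-212-5p runs from 3.98 to 5.71 CPM in control and from 1.03 to 3.76 CPM in HTG.

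The levels in the control and the HTG libraries overlapped for miR-132-3p, miR-132-5p and miR-212-3p, and did not for miR-212-5p, which lay lower in HTG. None of the 4 passed the test. Counts of all 488 miRNAs that passed the filter on low counts, the 4 members included, were compared by the two-sided quasi-likelihood test of edgeR, with a Benjamini-Hochberg adjusted p under 0.05 as the threshold. It called 0 miRNAs, or 0% of those tested, with 12 at an unadjusted p under 0.05 (2.46%), which became 27 with the replicate number as a block. Without both libraries numbered 1 it called 4, none of them a member, with 70 at an unadjusted p under 0.05. DESeq2 and limma-voom also called 0, with 19 and 17 at an unadjusted p under 0.05.

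miR-132-3p, the arm for which targets were named above, stood at 43.5, 46.1 and 58.8 CPM in control libraries 1 to 3, in that order. In HTG libraries 1 to 3 it stood at 60.9, 58.5 and 42.6 CPM. Control 3 was as high as the high HTG libraries, and HTG 3 was the lowest of all. The means were 49.5 ± 8.17 and 54.0 ± 9.97 CPM (SD, n = 3 each). The log2 fold change of HTG over control was 0.12 ± 0.21 (SE; adjusted p = 0.996 in edgeR). The 95% interval of the fold ran from 0.780 to 1.52, and without both libraries numbered 1 the log2 fold change was 0.038 ± 0.21 (SE). With 383 to 1287 counts per library, counting error was between 2.79% and 5.11% of the level, less than the spread between libraries, whose highest level was 1.43 times the lowest.

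miR-132-5p, the opposite strand of the same hairpin, stood at 9.20, 9.46 and 6.67 CPM in control and at 5.94, 7.89 and 8.06 CPM in HTG. Its lowest values were in HTG 1 and control 3, the libraries with the highest levels of its partner arm. In that arm control 3 and HTG 2 were close, at 58.8 and 58.5 CPM. The order of the low libraries depends on the scaling. Scaled by total count alone, miR-132-5p was lowest in HTG 2 (6.96 CPM), then HTG 1 (7.06), HTG 3 (7.30) and control 3 (7.38). The means of the TMM-scaled levels were 8.44 ± 1.54 and 7.30 ± 1.18 CPM (SD, n = 3 each). The log2 fold change was -0.20 ± 0.29 (SE; adjusted p = 0.996 in edgeR; 95% interval -0.88 to 0.47). Without both libraries numbered 1 the value turned to 0.086 ± 0.30 (SE).

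miR-212-3p, which shares its seed with miR-132-3p, stood at 4.66, 5.65 and 11.4 CPM in control and at 10.6, 12.4 and 5.05 CPM in HTG. The same libraries were high and low as for miR-132-3p, with a wider spread of 2.66 times between the lowest and the highest. The means were 7.24 ± 3.65 and 9.34 ± 3.82 CPM (SD, n = 3 each). The log2 fold change was 0.36 ± 0.47 (SE; adjusted p = 0.996 in edgeR; 95% interval -0.74 to 1.45). Single libraries set its size: the log2 fold change was 0.85 without control 3, 0.65 without HTG 3 and 0.045 without HTG 2. Without both libraries numbered 1 it was 0.12 ± 0.49 (SE).

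miR-212-5p, the rarest member, stood at 3.98, 5.19 and 5.71 CPM in control and at 1.03, 2.71 and 3.76 CPM in HTG. Each HTG library lay below each control library, although control 1 and HTG 3 were close: their exact 95% Poisson intervals, 2.77 to 5.53 and 2.62 to 5.23 CPM, overlapped. Such a gap with HTG lower occurred for 18 of the 488 tested miRNAs (3.69%), a gap with HTG higher for 21 (4.30%), and either for 39 (7.99%). The means were 4.96 ± 0.889 and 2.5 ± 1.38 CPM (SD, n = 3 each). The log2 fold change was -0.98 ± 0.48 (SE), with a 95% interval from -2.09 to 0.14. The unadjusted p was 0.0776 and the adjusted p 0.996 in edgeR; with the replicate block these were 0.0355 and 0.753. HTG 1, the shallowest library, held 8 counts (95% Poisson interval 0.446 to 2.04 CPM), and without it the log2 fold change was -0.59 ± 0.35 (SE). Without both libraries numbered 1 it was -0.67 ± 0.36 (SE).

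Because both 3p arms carry the same seed and can share target sites, their levels were summed. Capture may differ between the arms, and pairing with targets was not measured. The sum stood at 48.2, 51.8 and 70.2 CPM in control and at 71.5, 70.9 and 47.6 CPM in HTG. Control 3 and HTG 1 and 2 were thus high and the other libraries low, with libraries of both groups at both levels. miR-132-3p supplied between 82.5% and 90.3% of this sum. Its share was 90.3%, 89.1% and 83.7% in control libraries 1 to 3 and 85.2%, 82.5% and 89.4% in HTG libraries 1 to 3, so the libraries with the higher sum held the lower share. The exact 95% binomial intervals of control 3 (81.8% to 85.6%) and HTG 2 (80.2% to 84.7%) lay below those of control 1 (87.1% to 93.0%), control 2 (85.8% to 91.8%) and HTG 3 (86.1% to 92.1%), and that of HTG 1 (82.0% to 88.1%) overlapped with them.

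**Figure D2:**
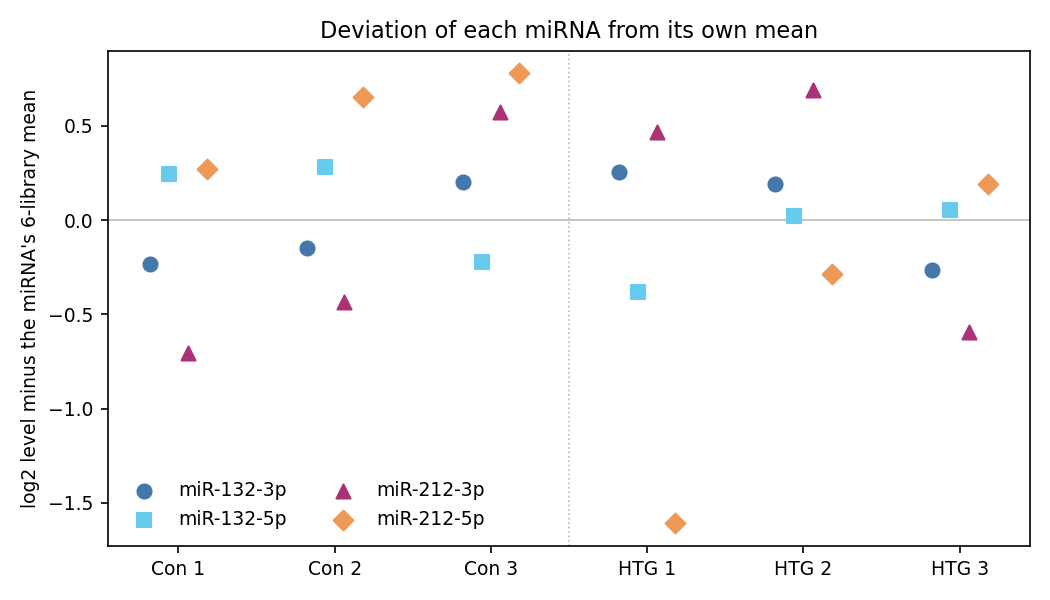
Log2 level of each of the 4 miRNAs minus its own mean over the 6 libraries, for control (Con) and HTG libraries; each point is 1 library, points are set side by side within a library for legibility, and the dotted line divides the groups. The 3p arms (circles and triangles) are above 0 in Con 3, HTG 1 and HTG 2 and below 0 elsewhere, and miR-212-5p (diamonds) stands at -1.61 in HTG 1.

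The arms of a hairpin are made from the same precursor in equal numbers, and their share in the counts is set by which strand is kept and by how well each strand is captured. Of the miR-132 counts the 3p arm held 82.5%, 83.0% and 89.8% in control libraries 1 to 3 and 91.1%, 88.1% and 84.1% in HTG libraries 1 to 3. The 3p arm was the dominant arm of miR-132 in every library. Of the miR-212 counts the 3p arm held 53.9%, 52.1% and 66.7% in control and 91.1%, 82.0% and 57.3% in HTG. For miR-212 the arms were near parity in controls 1 and 2 and HTG 3, where the exact 95% binomial intervals (42.1% to 65.5%, 41.6% to 62.5% and 45.9% to 68.2%) include equal counts. In HTG 1 and 2 they ran from 83.2% to 96.1% and from 76.7% to 86.6%, above the interval of control 3 (61.6% to 71.4%).

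**Figure D3:**
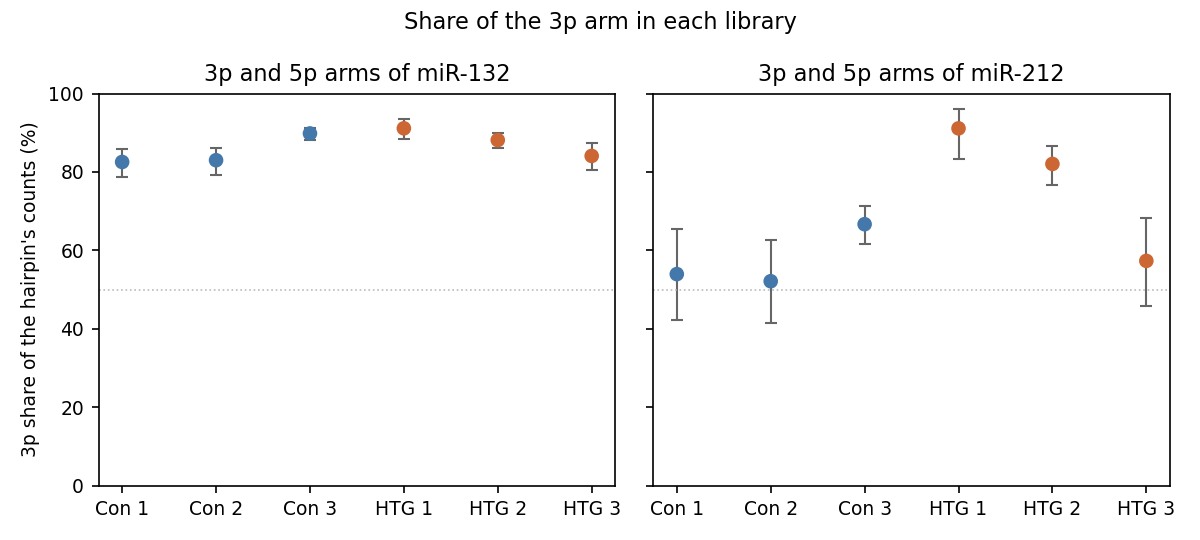
Share of the 3p arm in the counts of both arms (percent) for miR-132 and miR-212 in each control (Con) and HTG library, with exact 95% binomial intervals; the dotted line marks equal counts of both arms. The miR-132 share stays between 82.5% and 91.1%, and the miR-212 share runs from 52.1% to 91.1%, with HTG 3 among the controls.

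As log2 ratios of the 3p to the 5p count (with 0.5 added to each), the arms of miR-212 stood at 0.45 ± 0.48 in control and 1.96 ± 1.44 in HTG (SD, n = 3 each), a difference of 1.51. The groups overlapped, since HTG 3 lay below control 3, and the exact two-sided permutation p was 0.2, where 3 against 3 libraries allow no p below 0.1. Without HTG 1 the difference was 0.85, and without both libraries numbered 1 it was 0.74. For the arms of miR-132 the ratio was 2.55 ± 0.51 and 2.87 ± 0.48, a difference of 0.32 (exact permutation p = 0.5, n = 3 each), which turned to -0.068 without both libraries numbered 1. The log2 ratio of miR-132-3p to miR-212-3p was 2.86 ± 0.44 and 2.61 ± 0.42, a difference of -0.26 (exact permutation p = 0.6, n = 3 each), and of -0.040 without both libraries numbered 1. All 3 ratios had p = 0.6 after adjustment over the 3 (Benjamini-Hochberg, exact permutation tests).

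The arm ratios of both hairpins were highest in HTG 1, at 0.63 and 2.08 above their own means over the 6 libraries for miR-132 and miR-212. The same libraries held the upper places, control 3 and HTG 1 and 2, although control 3 was at -0.21 for miR-212. Over the 151 hairpins with both arms tested, the median deviation of this ratio stayed between -0.10 and 0.04 in every library. From the lowest to the highest library the log2 ratio of miR-212 ranged over 3.16, more than that of all but 5 of the 151 hairpins, and that of miR-132 over 1.11, near the median of 1.02. Low counts widen this range, and miR-212-5p had 8 counts in HTG 1.

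Likeness of pattern was measured as the root-mean-square (RMS) difference between log2 levels, each centred on its own mean, over the 6 libraries. Seen from miR-212-3p, miR-132-3p was at place 7 among the other 487 tested miRNAs, with an RMS difference of 0.38 against a median of 0.67. Seen from miR-132-3p, which varied less, miR-212-3p was at place 240, close to the median of 0.38. The 5p arms were not close to their partners: the RMS difference was 0.43 between the arms of miR-132 and 1.16 between the arms of miR-212. Seen from its 3p arm, miR-132-5p was at place 299 and miR-212-5p at place 454. Between the 5p arms the RMS difference was 0.68. This put miR-132-5p at place 61 as seen from miR-212-5p (median 0.87), and miR-212-5p at place 388 as seen from miR-132-5p (median 0.40). These values describe 6 libraries that share the same scaling, and low counts add to them.

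Outside the family, the miRNA closest to miR-132-3p was miR-7a-1-3p (RMS 0.1), the passenger strand of a miR-7a hairpin, followed by miR-26a-2-3p (0.129), miR-574-3p (0.132), miR-125a-3p (0.133) and miR-500-3p (0.145). Those closest to miR-212-3p were miR-1306-3p (0.241), miR-186-3p (0.249), miR-350-5p (0.298), miR-26a-2-3p (0.36) and miR-511-5p (0.371). Their mean levels were low, at 1.09, 1.07, 3.25, 5.3 and 2.37 CPM in that order, where counting error is larger. For miR-132-5p they were miR-1191a (0.136), miR-152-3p (0.138), miR-27b-3p (0.147), miR-3105-3p (0.151) and miR-101c (0.155), of which the last shares nearly all its counts with miR-101a-3p. The miRNAs nearest to miR-212-5p were farther off, with let-7c-1-3p at 0.405, miR-503-3p at 0.42, miR-34a-3p at 0.45, miR-135a-5p at 0.459 and miR-183-3p at 0.468. Their mean levels were 1.43, 1.74, 2.32, 17.3 and 13.9 CPM in that order. miR-26a-2-3p was the one miRNA among the 5 nearest of both 3p arms.

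Of 10 other miRNAs linked in the literature to cyclic AMP, CREB or neuronal activity, all were tested and 0 passed. They include both arms of miR-9 and of miR-34b. Log2 fold changes were above 0 for 4 and below for 6, against 239 and 249 of all 488 tested. Their median was -0.16, against -0.01 over all 488. The list is not a pathway with 1 direction: miR-375-3p, which cyclic AMP lowers in rat beta cells, was at 0.05 ± 0.16 (SE). The arms of miR-9, a neuronal and endocrine miRNA, were at -0.52 ± 0.29 for miR-9-5p and -0.68 ± 0.25 for miR-9-3p. miR-9-3p was lower in HTG without overlap, at 13.0 to 18.3 CPM against 19.6 to 30.8 CPM in control. A gap with HTG lower occurred for 18 of the 488 tested miRNAs (3.69%). miR-134-5p, a dendritic miRNA of rat neurons, was at -0.24 ± 0.37, and miR-124-3p, the main neuronal miRNA, at 0.69 ± 0.78 with levels between 0.228 and 2.71 CPM. Their adjusted p was 0.996 in edgeR for each.

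miR-132 is also among the miRNAs raised by Toll-like receptor signalling in immune cells. Of 6 other miRNAs of that response, 5 were tested and 0 passed, with 1 above 0 and 4 below and a median of -0.15. Over all 488 tested miRNAs, 239 were above 0 and 249 below, with a median of -0.01. miR-146a-5p, a feedback inhibitor of that signalling in mouse and human cells, was at -0.03 ± 0.39 (SE), and miR-155-5p, an inflammatory miRNA, at 0.13 ± 0.56 (adjusted p = 0.996 in edgeR for each). miR-146b-5p was at -0.44 ± 0.33 and miR-21a-5p at -0.15 ± 0.18 (SE, adjusted p = 0.996 in edgeR for each). miR-9-5p, at -0.52 ± 0.29 (SE, adjusted p = 0.996 in edgeR), is also among the miRNAs linked above to cyclic AMP, CREB or neuronal activity. miR-146a-5p stood at 181, 203 and 292 CPM in control libraries 1 to 3 and at 346, 118 and 197 CPM in HTG libraries 1 to 3. Its highest libraries, HTG 1 and control 3, were also the highest of miR-132-3p, while its lowest, HTG 2, was among the high libraries of both 3p arms. miR-155-5p was likewise highest in HTG 1 (196 CPM) and lowest in HTG 2 (39.0 CPM). miR-147-3p did not pass the filter on low counts.

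Since whole tissue was sequenced, fewer cells of a type and less miRNA per cell cannot be told apart. Marker miRNAs of cells that could hold miR-132 and miR-212 were summed per library. The summed 3 endothelial markers ran from 8020 to 9652 CPM in control and from 8648 to 8934 CPM in HTG. The summed 3 islet markers ran from 36023 to 43259 and from 37255 to 49144 CPM, the 5 acinar markers from 328076 to 447606 and from 326852 to 542560 CPM, and the 2 smooth muscle markers from 13817 to 57759 and from 16749 to 33060 CPM. The acinar sum is mostly miR-148a-3p, which was lowest in control 3 (281634 CPM). miR-216b-5p and miR-217-5p were instead highest in control 3, at 11403.4 and 21411.5 CPM, and miR-216a-5p and miR-802-5p were highest in HTG 2. The islet sum is mostly miR-375-3p, whose log2 fold change was 0.05 ± 0.16 (SE). The islet marker miR-7a-5p was higher in HTG without overlap, at 4857 to 5588 CPM against 2191 to 4373 CPM in control. Such a gap with HTG higher occurred for 21 of the 488 tested miRNAs (4.30%). The log2 fold change was 0.82 ± 0.27 for miR-7a-5p and -0.32 ± 0.29 for the islet marker miR-184-3p (SE, adjusted p = 0.996 in edgeR for each). The 2 myeloid markers ran from 668 to 3525 CPM in control and from 776 to 1001 CPM in HTG. The 4 neuron markers ran from 214 to 338 and from 161 to 261 CPM, of which miR-9-5p, also found in endocrine cells, gave most. It had a log2 fold change below 0, while those of miR-124-3p (near the counting floor), miR-129-2-3p and miR-153-3p were above 0, at 0.69, 0.63 and 0.39, and none of the 4 passed. miR-153-3p was higher in HTG with a narrow gap, at 30.47 to 42.68 CPM against 25.72 to 30.44 CPM in control. It is 1 of the 21 miRNAs (4.30%) with HTG higher named above. No marker of these lists was at 0 in any library.

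The 4 lymphoid markers, miR-150-5p, miR-342-3p and both arms of miR-142a, summed to 2673 CPM in control 1 and 5040 CPM in HTG 1, against 361 to 976 CPM in the other libraries. HTG 1, the most lymphoid-rich library, was also the one with the least miR-212-5p and, in TMM-scaled levels, the least miR-132-5p. Scaled by total count alone, miR-132-5p was lowest in HTG 2. Control 1 held 3.98 CPM of miR-212-5p and 9.20 CPM of miR-132-5p. The part of these cells in the result was not tested.

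**Figure D4:**
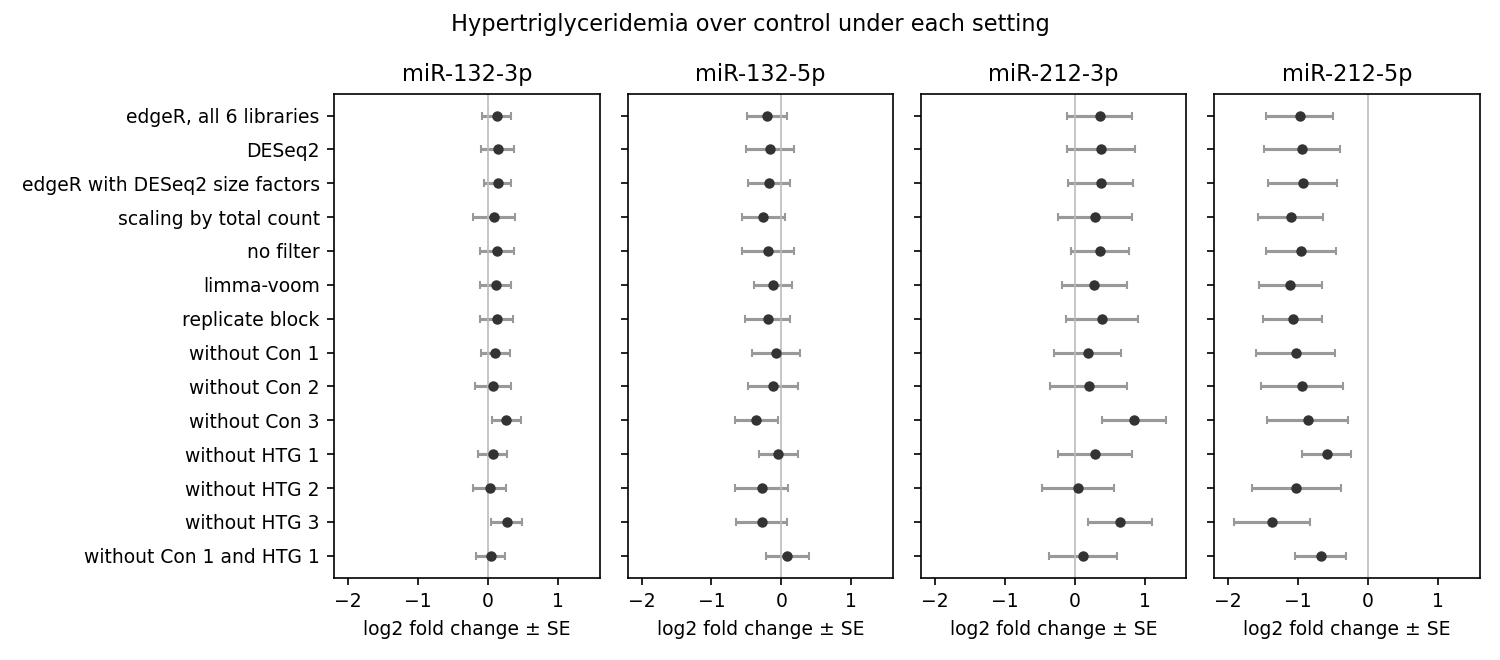
Log2 fold change of HTG over control (Con), with its SE, for each of the 4 miRNAs under each test, scaling and choice of libraries; the vertical line marks no change. miR-212-5p stays below 0 under every setting shown, from -1.37 to -0.59, and miR-132-5p crosses 0 without Con 1 and HTG 1.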

How the data were processed

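Small RNA of mouse pancreas with pancreatitis was sequenced in 3 control and 3 HTG libraries (raised blood triglycerides), after Trizol extraction and with NEXTflex kit v3 adapters, per the labels' protocols. The submitters' processing notes name Bowtie 1.1.1 and GRCm38, and trimming, annotation release and the handling of multiply matching reads were not stated there. The deposited values used are raw read counts per mature miRNA, per the file headers. The 6 further per-library columns were not used.

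Counts of 488 miRNAs (filterByExpr, minimum count 10, minimum total 15) were fitted with edgeR 4.0.16 in R 4.3.3: TMM scaling, quasi-likelihood test, Benjamini-Hochberg at 0.05. SE is the log2 fold change divided by the root of its F statistic. The fit was tested on simulated data. Alternatives were DESeq2 1.42.0 (test, and size factors alone), limma-voom (limma 3.58.1), total-count scaling, no filter, a replicate block and left-out libraries. Ratios were tested by exact permutation (scipy 1.17.1).

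Libraries with the same number deviated from their group means together (r = 0.466, 0.187 and 0.253 over the tested miRNAs for numbers 1, 2 and 3), although no label states a pairing. Numbers 2 and 3 were about as close across numbers, with r = 0.215 for control 2 and HTG 3 and 0.226 for control 3 and HTG 2. Only number 1 stood apart, with r between -0.365 and -0.273 to the other numbers of the other group. Deviations from the mean of 3 libraries cancel within a group, so these r values are not independent. The negative ones follow in part from the positive r of number 1. The tests reported are unpaired, and the replicate block was an alternative, for the ratios one added after seeing the data. The members, the lists and the miRNAs named (members, listed miRNAs, and the 5 nearest to each member) were chosen with earlier results of these data known.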

Additional observations from a re-analysis of the deposited data

How the results depend on the processing

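Under the 13 alternatives run for each member, none of the 4 passed the threshold, and the lowest adjusted p was 0.399. The log2 fold change of miR-132-3p ranged from 0.025 to 0.26, of miR-212-3p from 0.045 to 0.85 and of miR-212-5p from -1.37 to -0.59, with their directions kept. miR-212-5p had an unadjusted p under 0.05 in 4 of the 13. miR-132-5p ranged from -0.36 to -0.043 with 1 library left out and reversed to 0.086 without both libraries numbered 1. The arm ratio of miR-132 did too, at -0.068. With 1 library left out, the difference in log2 ratio ranged from 0.089 to 0.62 for the arms of miR-132, from 0.85 to 2.28 for those of miR-212 and from -0.51 to -0.072 for miR-132-3p to miR-212-3p. The number of miRNAs called was 0, and became 1 without the filter, 2 without control 1 and 4 without both libraries numbered 1, with no member among them; it ranged from 0 to 2 with 1 library left out. The causes were not tested. With the replicate block it stayed at 0, and the block changed no call; within pairs the ratios had exact permutation p = 0.75, 0.5 and 0.75 (arms of miR-132, arms of miR-212, miR-132-3p to miR-212-3p), where 3 pairs allow no p below 0.25. Depth limits miR-212-5p most: its counting error reached 35.4% of the level in HTG 1.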
